A study of Homo sapiens with 112 samples.

Results

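The 8 genes described here encode 5 long-chain acyl-CoA synthetases (ACSL1, ACSL3, ACSL4, ACSL5 and ACSL6), the acyl-CoA binding protein DBI and the fatty acid binding proteins FABP3 and FABP5. They were picked by symbol from an RNA-seq table of 58684 genes, in which all 8 have a row, and they were followed in 55 libraries of VCaP and 57 of LAPC4, both prostate cancer cell lines. Long-chain fatty acids enter most of their metabolic routes after an acyl-CoA synthetase has joined them to coenzyme A, and the enzymes of the family differ in their location in the cell and in the fatty acids they prefer. DBI binds the acyl-CoA that they form and keeps it available to other enzymes. Fatty acid binding proteins carry the free fatty acid through the cytosol, FABP3 chiefly in heart and muscle and FABP5 chiefly in epithelial cells.

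VCaP and LAPC4 are androgen-responsive cell lines, and VCaP cells carry a fusion that puts ERG under the TMPRSS2 promoter. Before treatment, every culture spent 2 days in a hormone-poor medium (10% charcoal-stripped serum). Cells then received the vehicle DMSO, 1 nM of the synthetic androgen R1881, or 1 nM R1881 together with 500 nM or 2 µM of the antiandrogen darolutamide, each for 8 or 22 h. In VCaP, DMSO had 10 libraries at 8 h and 8 at 22 h, R1881 had 10 and 9, and darolutamide had 4 at each time for 500 nM and 5 at each time for 2 µM. In LAPC4, DMSO had 10 and 7, R1881 had 10 at each time, and every darolutamide group had 5. The study's methods call the replicates biological and give 5 per condition, whereas the groups here held 4 to 10 libraries. The labels only number the libraries and do not say that they were separate cultures, nor why some controls are numbered above 5. The p-values therefore measure the spread between these libraries, which may be technical.

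Libraries held 12188455 to 25201678 reads counted on genes. Epithelial markers were present in both lines (EPCAM at 259.5 to 428 CPM in VCaP and 235 to 315 in LAPC4), and ERG had at least 1578 reads in VCaP and at most 1 in LAPC4 libraries. Of the markers of other cells, the leukocyte genes PTPRC, CD3E, CD14, CD68 and MS4A1 summed to at most 0.678 CPM in any library, and the adipocyte genes ADIPOQ and LEP had at most 2 reads and CIDEC at most 21. The fourth gene of that list, LPL, stood at 6.095 to 30.8 CPM in VCaP, where it changed by -0.81 with R1881 at 22 h and by 1.81 with 2 µM darolutamide on the log2 scale. Of the endothelial genes only VWF was tested, which had at most 3.19 CPM in VCaP and 3.36 in LAPC4 and rose with R1881 at 22 h by 2.68 and 0.96. Fibroblast and stromal genes summed to 1.70 to 36.4 CPM in VCaP (LUM alone to 0.0999 to 29.1), and 4 of their 5 tested genes fell with R1881 at 22 h, while COL1A2 was at 0 in every VCaP library. Their part in the results was not tested. CPM are reads scaled to a common library size after TMM scaling, a correction that sets the bulk of genes level between libraries. A gene was tested in a line where 4 or more of its libraries had 10 reads or more, which left 7 members among 19266 genes in VCaP (all but FABP3) and 5 among 18204 in LAPC4 (ACSL1, ACSL3, ACSL4, ACSL5 and DBI). A gene was called at an adjusted p under 0.05 in edgeR's quasi-likelihood test.

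ACSL3 lies on chromosome 2 from 222860942 to 222944639 and DBI on the same chromosome from 119366924 to 119372550, both on the plus strand (GRCh38, GENCODE 44). ACSL5 lies on the plus strand of chromosome 10 from 112374116 to 112428379. The stretches of their RefSeq promoter windows that hold no exon are printed because in VCaP cells ACSL3 and DBI rose most of the members with R1881 and ACSL5 fell further with the antagonist. Capitals mark GC boxes (GGGCGG or its complement) and CCAAT boxes (CCAAT or its complement). The coordinates refer to GRCh38.p14, and each sequence runs 5′ to 3′ on the plus strand.
ACSL3, chr2:222860786-222860941: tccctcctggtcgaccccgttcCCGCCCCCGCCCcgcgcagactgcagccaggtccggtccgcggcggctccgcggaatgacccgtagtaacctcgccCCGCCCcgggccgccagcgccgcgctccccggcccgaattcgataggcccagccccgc
DBI, chr2:119366835-119366923: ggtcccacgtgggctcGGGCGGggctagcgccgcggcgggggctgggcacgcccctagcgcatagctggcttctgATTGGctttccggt
ACSL5, chr10:112375018-112375234: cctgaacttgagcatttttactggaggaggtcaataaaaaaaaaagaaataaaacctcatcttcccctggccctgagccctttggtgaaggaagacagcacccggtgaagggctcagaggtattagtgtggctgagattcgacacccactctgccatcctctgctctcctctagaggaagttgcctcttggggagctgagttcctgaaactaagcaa
The ACSL5 window lies inside the span of the gene, downstream of its outermost GENCODE start. On both strands of the whole 300-base windows, ACSL3 and DBI held GGGCGG and CCAAT, which 45% and 34.6% of 35116 such windows hold. ACSL5 held neither. AGAACA, the half-site of the androgen response element, was in none of the 7 member windows examined and in 14.8% of all windows. TATAAA was in none of the 7 and in 11.5% of all windows.

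The first question was how the members respond to androgen. In VCaP cells treated with R1881 for 22 h, 6 of the 7 tested members were called, in a comparison in which 77.4% of all genes were called (37.4% rose and 40% fell). ACSL3, DBI and ACSL1 rose, and FABP5, ACSL6 and ACSL5 fell. Read counts in bulk RNA cannot tell fewer cells with a transcript from less transcript per cell.

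ACSL3, the synthetase of the endoplasmic reticulum and of lipid droplets, had 353, 372 and 425 CPM (lowest, median and highest of 8 libraries) with DMSO and 4278, 4742 and 5385 CPM (9 libraries) with R1881 at 22 h. The groups lay far apart, and the rise was 3.64 ± 0.05 on the log2 scale (SE), or 12.4-fold (edgeR adjusted p = 1.29e-53). At 8 h, ACSL3 had 268, 284 and 303 CPM with DMSO and 1453, 1686 and 1794 CPM with R1881 (10 libraries each), again without overlap. That was a log2 change of 2.55 ± 0.04 (SE, edgeR adjusted p = 2.30e-49). The rise was larger at 22 h than at 8 h by 1.08 ± 0.06 on the log2 scale (SE, edgeR adjusted p = 7.47e-24).

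DBI, the binding protein for acyl-CoA, went the same way. Its level at 22 h was 71.3, 72.6 and 76.7 CPM with DMSO and 723, 768 and 848 CPM with R1881. The log2 change was 3.41 ± 0.04 (SE, 10.7-fold, edgeR adjusted p = 1.71e-55), and no library of one group reached the other. After 8 h DBI stood at 65.6, 72.4 and 78.9 CPM with DMSO and at 310, 348 and 386 CPM with R1881, a log2 change of 2.25 ± 0.03 (SE, edgeR adjusted p = 7.05e-50). DBI with DMSO did not differ detectably between the time points, with a log2 difference of 0.00 and a 95% confidence interval of -0.07 to 0.08.

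ACSL1, a synthetase of the endoplasmic reticulum and the outer mitochondrial membrane, rose much less. At 22 h it had 180, 192 and 205 CPM with DMSO and 252, 278 and 289 CPM with R1881, which did not overlap (log2 change 0.51 ± 0.04, SE, edgeR adjusted p = 1.49e-16). At 8 h the ranges overlapped, with 157 to 171 CPM for DMSO and 156 to 219 for R1881, and the log2 change was 0.22 ± 0.04 (SE, edgeR adjusted p = 1.03e-06).

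FABP5, the epithelial fatty acid carrier on chromosome 8 (81280536 to 81284777), fell at both time points. With DMSO for 22 h it had 24.8, 27.7 and 29.8 CPM, and with R1881 2.61, 3.78 and 4.29 CPM. The groups were widely separated, and the log2 change was -2.90 ± 0.06 (SE, edgeR adjusted p = 2.98e-42). At 8 h, 30.5, 34.7 and 40.3 CPM with DMSO stood against 7.44, 8.48 and 10.2 CPM with R1881 (log2 change -2.03 ± 0.05, SE, edgeR adjusted p = 1.79e-38). Reads from near-identical copies could not be told apart with certainty, because the annotation and the treatment of reads with several alignments are not given in the sources used here. The 13 listed FABP5 pseudogenes together had more CPM than FABP5 itself, with a median of 45.8 (40.1 to 48.7) for DMSO and 5.71 (3.76 to 6.55) for R1881 at 22 h, so FABP5 counts are uncertain in level. FABP5 and its pseudogenes added up to a median of 73.9 CPM with DMSO and 9.35 CPM with R1881, and the 2 groups did not overlap in this sum either.

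ACSL5 fell at both times and further at 22 h, and ACSL6 was called lower at 22 h alone. ACSL5, a mitochondrial and endoplasmic reticulum synthetase best known from the intestine, had 150, 158 and 171 CPM with DMSO and 85.9, 93.0 and 108 CPM with R1881 at 22 h (log2 change -0.77 ± 0.04, SE, edgeR adjusted p = 5.21e-23). Its change at 8 h was -0.26 ± 0.04 (SE, edgeR adjusted p = 5.61e-08), and the ranges of 124 to 137 CPM for DMSO and 93.5 to 124 for R1881 just overlapped. ACSL6, a synthetase of brain, was low throughout. At 22 h it had 2.52, 2.79 and 3.21 CPM with DMSO and 0.899, 1.11 and 1.76 CPM with R1881, or 33 to 68 and 14 to 30 reads per library (log2 change -1.23 ± 0.11, SE, edgeR adjusted p = 2.79e-15). At 8 h ACSL6 was not called, at a log2 change of 0.12 ± 0.08 (SE, edgeR adjusted p = 0.205). The change with R1881 differed between 22 and 8 h by -1.35 ± 0.14 for ACSL6 and by -0.50 ± 0.06 for ACSL5 (SE, edgeR adjusted p = 1.03e-12 and 1.08e-10).

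ACSL4, the synthetase with a preference for arachidonic acid (chromosome X, 109624244 to 109733403), was not called with R1881 in VCaP cells. At 22 h it had 11.4, 12.9 and 15.0 CPM with DMSO and 10.5, 11.9 and 13.3 CPM with R1881. The log2 difference was -0.13 with a 95% confidence interval of -0.26 to 0.00 (edgeR adjusted p = 0.0688), and with library totals in place of TMM factors it was -0.24 and called (edgeR adjusted p = 0.000616). It was also called with control replicates 1 to 5 (-0.18, edgeR adjusted p = 0.036) and with the 2 groups alone (-0.14, edgeR adjusted p = 0.0401). FABP3, the muscle carrier, had 0 reads in 51 of 55 VCaP libraries and at most 3 in the others, so no change was detectable at this depth. At 8 h, 5 of the 7 tested members were called in VCaP, where 66.9% of all genes were.

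**Figure D1:**
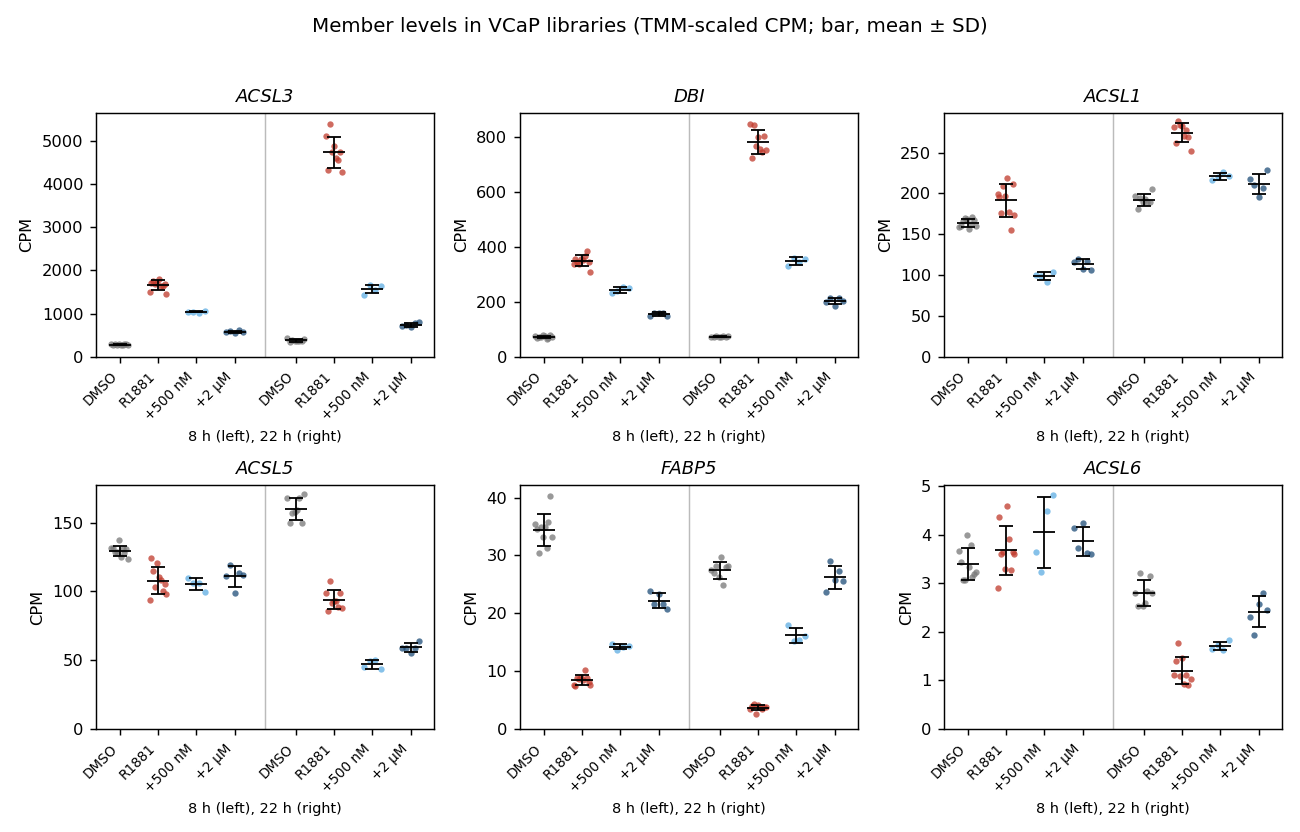
TMM-scaled CPM (y axis, linear, from 0) of 6 members in each of the 55 VCaP libraries, by treatment and time (x axis). Points are libraries, and black bars give mean ± SD. ACSL3 and DBI are highest with R1881 at 22 h, FABP5 is lowest there, ACSL5 is lowest in the darolutamide groups at 22 h, and ACSL1 is lowest in the darolutamide groups at 8 h.

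The next question was how far the antagonist moves the members back. With 2 µM darolutamide added to R1881 for 22 h, all 7 tested members were called against R1881 alone in VCaP cells (66.9% of all genes), and with 500 nM 6 of 7 (53% of all genes). These comparisons share their R1881 libraries with those above, so the levels are given side by side, and percentages place each darolutamide library between the mean log2 levels with R1881 (0%) and with DMSO (100%).

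For ACSL3 at 22 h, the 4 libraries with 500 nM had 1430, 1651, 1550 and 1637 CPM. The 5 libraries with 2 µM had 705, 725, 690, 773 and 794 CPM. All 9 lay between the DMSO and the R1881 range, and the higher dose was the lower of the pair without overlap. Against R1881 the log2 change was -1.59 ± 0.06 with 500 nM and -2.68 ± 0.05 with 2 µM (SE, edgeR adjusted p = 2.00e-31 and 2.07e-43). ACSL3 had moved 43.8 ± 2.6% and 73.8 ± 2.4% of the way to DMSO (SD, n = 4 and 5). The doses themselves differed by -1.09 ± 0.06 (SE, edgeR adjusted p = 1.49e-22), in a comparison in which 20.2% of all genes and 5 of 7 members were called.

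DBI moved less far than ACSL3 at 22 h. It had 331, 361, 345 and 358 CPM with 500 nM and 199, 214, 184, 214 and 203 CPM with 2 µM, which placed it 34.2 ± 1.6% and 57.1 ± 2.6% of the way to DMSO (SD, n = 4 and 5). The log2 changes against R1881 were -1.17 ± 0.05 and -1.95 ± 0.04 (SE, edgeR adjusted p = 7.66e-29 and 6.94e-41). Every DBI library with 2 µM remained above every DMSO library, and the log2 difference from DMSO was 1.47 ± 0.04 (SE, edgeR adjusted p = 2.05e-35). For ACSL3 that difference was 0.95 ± 0.05 (SE, edgeR adjusted p = 1.93e-24). In the comparison of 2 µM with DMSO, 59% of all genes and 4 of 7 members were called.

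FABP5 came back furthest. With 500 nM for 22 h it had 18.0, 15.2, 15.3 and 16.1 CPM, and with 2 µM 23.7, 29.0, 25.8, 27.2 and 25.5 CPM. The libraries with 2 µM covered nearly the same range as DMSO (24.8 to 29.8 CPM), at 97.7 ± 3.8% of the way (SD, n = 5). Against R1881 the log2 changes were 2.14 ± 0.08 and 2.84 ± 0.07 (SE, edgeR adjusted p = 4.23e-31 and 1.58e-39). Against DMSO, FABP5 with 2 µM differed by -0.06 on the log2 scale, with a 95% confidence interval of -0.19 to 0.06 (edgeR adjusted p = 0.385). The summed FABP5 pseudogenes had a median of 24.8 CPM with 500 nM and 42.0 CPM with 2 µM.

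ACSL6 followed FABP5 at a lower level. It had 1.65, 1.73, 1.63 and 1.83 CPM with 500 nM and 2.29, 1.94, 2.58, 2.79 and 2.44 CPM with 2 µM at 22 h. The log2 changes against R1881 were 0.51 ± 0.14 and 1.00 ± 0.12 (SE, edgeR adjusted p = 0.00384 and 1.58e-10). The values with 500 nM overlapped those with R1881, and with R1881 and DMSO replicates 1 to 5 alone that change was 0.36 and not called (edgeR adjusted p = 0.0778).

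ACSL5 moved the other way, further from DMSO. At 22 h it had 45.2, 49.5, 50.1 and 43.4 CPM with 500 nM and 58.9, 59.0, 55.5, 59.1 and 64.2 CPM with 2 µM. All 9 values lay under the lowest R1881 library (85.9 CPM) and under the lowest DMSO library (150 CPM). Against R1881 the log2 change was -0.998 ± 0.058 with 500 nM and -0.66 ± 0.05 with 2 µM (SE, edgeR adjusted p = 9.96e-22 and 6.58e-17), and against DMSO -1.77 ± 0.06 and -1.43 ± 0.05 (SE, edgeR adjusted p = 2.01e-32 and 3.84e-30). The lower dose gave the lower level, with a difference of 0.33 ± 0.06 between 2 µM and 500 nM (SE, edgeR adjusted p = 4.02e-05). At 8 h no such fall was detected. ACSL5 then had 110, 106, 106 and 99.8 CPM with 500 nM, within the R1881 range, and the log2 change against R1881 was -0.03 with a 95% confidence interval of -0.14 to 0.08. With 2 µM the effect of the antagonist differed between 22 and 8 h by -0.70 ± 0.07 (SE, edgeR adjusted p = 1.65e-12).

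ACSL1 passed below DMSO at 8 h instead. The libraries with 500 nM had 101, 98.7, 92.0 and 104 CPM and those with 2 µM 116, 120, 107, 118 and 106 CPM, all under the lowest of the 10 DMSO libraries (157 CPM). Against DMSO the log2 change was -0.73 ± 0.05 and -0.54 ± 0.05 (SE, edgeR adjusted p = 8.55e-18 and 6.78e-14). At 22 h ACSL1 had 216, 220, 226 and 222 CPM with 500 nM and 217, 211, 196, 207 and 229 CPM with 2 µM. The library at 196 CPM lay within the DMSO range, and the others between the DMSO and the R1881 range. Its change with 2 µM against R1881 differed between 22 and 8 h by 0.39 ± 0.07 (SE, edgeR adjusted p = 2.29e-06). Between the doses ACSL1 was not called at 22 h, with a log2 difference of -0.06 and a 95% confidence interval of -0.17 to 0.05.

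ACSL4 with 2 µM was 0.19 ± 0.07 above R1881 on the log2 scale at 22 h (SE, edgeR adjusted p = 0.0203), with overlapping ranges (12.6 to 14.2 against 10.5 to 13.3 CPM). Without replicate 3 of the 2 µM group that difference was 0.15 and not called (edgeR adjusted p = 0.089). It was also not called without a filter or with control replicates 6 and above (edgeR adjusted p = 0.0624 and 0.081).

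At 8 h, both doses moved DBI, ACSL3, ACSL1 and FABP5 against R1881, which made 4 of 7 tested members in comparisons that called 30.6% (500 nM) and 52.1% (2 µM) of all genes. ACSL3 fell by 0.66 with 500 nM and by 1.51 with 2 µM on the log2 scale, and DBI fell by 0.52 and by 1.17 (SE 0.04 to 0.05). FABP5 rose by 0.75 ± 0.07 and 1.39 ± 0.06 (SE). At this time ACSL3 had moved 25.9 ± 1.0% and 59.2 ± 2.2%, DBI 22.9 ± 2.8% and 51.8 ± 2.9%, and FABP5 37.1 ± 2.1% and 68.9 ± 4.2% of the way to DMSO (SD, n = 4 and 5). The order of the 3 genes, with FABP5 ahead of ACSL3 and DBI last, was that of 22 h. The doses differed in 4 of 7 members at 8 h, where 17.6% of all genes were called.

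Against DMSO, 6 of 7 members were called with 500 nM at 8 h (44.9% of all genes) and 5 of 7 with 2 µM (27.5%), and 6 of 7 with 500 nM at 22 h (62.7%). The call of ACSL6 with 500 nM at 8 h (0.26, edgeR adjusted p = 0.0427) was lost in each of the 11 alternatives that kept all libraries of that group. The R1881 effect differed between 22 and 8 h in 6 of 7 members (60.4% of all genes), and so did the effect of 2 µM darolutamide (48.5%). For FABP5 with R1881 the difference was -0.88 ± 0.08 and for DBI 1.16 ± 0.05 on the log2 scale (SE).

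**Figure D2:**
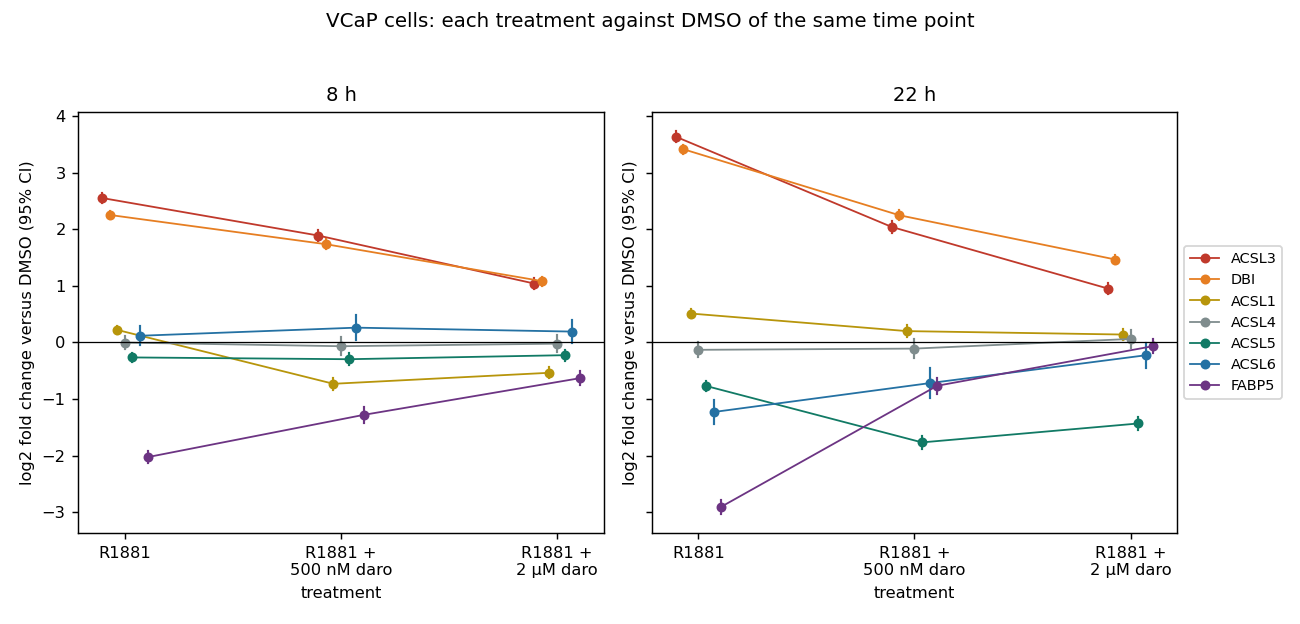
Log2 fold change against DMSO of the same time point (y axis) in VCaP cells for R1881 alone and with 500 nM or 2 µM darolutamide (x axis), at 8 h (left) and 22 h (right). Vertical lines are 95% confidence intervals. ACSL3, DBI and FABP5 approach 0 with dose, ACSL5 lies further below 0 with darolutamide at 22 h (-1.77 and -1.43) than with R1881 alone (-0.77), and ACSL1 lies below 0 with darolutamide at 8 h.

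LAPC4 cells gave much smaller changes. With R1881 for 22 h, 3 of the 5 tested members were called (13.3% of all genes), and the largest of these changes was -0.27 on the log2 scale. ACSL3, which rose 12.4-fold in VCaP, had 342, 365 and 398 CPM with DMSO and 343, 367 and 404 CPM with R1881 in LAPC4 at 22 h. The groups coincided, at a log2 difference of 0.01 with a 95% confidence interval of -0.07 to 0.09. The R1881 effect on ACSL3 differed between the lines by 3.67 ± 0.06 at 22 h and by 2.52 ± 0.06 at 8 h (SE, edgeR adjusted p = 7.60e-77 and 2.99e-65), in comparisons that called 58.6% and 48.6% of all genes.

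DBI rose in LAPC4 as well, by a small amount. It had 254, 281 and 293 CPM with DMSO and 313, 330 and 342 CPM with R1881 at 22 h, without overlap (log2 change 0.24 ± 0.03, SE, edgeR adjusted p = 4.07e-09). With 500 nM darolutamide it had 275, 289, 282, 286 and 270 CPM, and with 2 µM 294, 290, 286, 297 and 293 CPM. All 10 lay below the lowest R1881 library, and the log2 changes were -0.22 ± 0.03 and -0.16 ± 0.03 (SE, edgeR adjusted p = 2.05e-06 and 2.75e-04). The DBI response to R1881 was larger in VCaP by 3.21 ± 0.05 (SE, edgeR adjusted p = 3.00e-82).

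ACSL1 changed in opposite directions in the 2 lines. In LAPC4 it fell with R1881 at 22 h, from 445, 468 and 488 CPM to 389, 399 and 423 CPM, without overlap (log2 change -0.22 ± 0.02, SE, edgeR adjusted p = 4.39e-13). With 2 µM darolutamide ACSL1 had 461, 471, 457, 469 and 431 CPM, above every R1881 library, and with 500 nM 432, 442, 431, 440 and 422 CPM. The log2 changes against R1881 were 0.19 ± 0.02 and 0.11 ± 0.02 (SE, edgeR adjusted p = 3.32e-09 and 5.93e-04). The R1881 effect on ACSL1 differed between VCaP and LAPC4 by 0.77 ± 0.05 (SE, edgeR adjusted p = 2.68e-28). The effect of 2 µM darolutamide at 22 h differed between the lines in 4 of the 5 members tested in both (49% of all genes). For ACSL1 the difference was -0.63 ± 0.06 (SE). Among the 4 was ACSL5, which had only 1 to 23 reads per LAPC4 library.

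ACSL4 in LAPC4 fell from 12.1, 13.9 and 15.4 CPM with DMSO to 10.3, 11.6 and 13.0 CPM with R1881 at 22 h (log2 change -0.27 ± 0.05, SE, edgeR adjusted p = 1.18e-04). The ranges overlapped. With control replicates 6 and above, which left only replicates 6 and 7 for DMSO, the change was -0.26 and not called (edgeR adjusted p = 0.157). Calls over all genes there went from 2418 to 863. With 2 µM darolutamide ACSL4 had 13.7, 12.6, 14.1, 14.5 and 12.6 CPM and was called 0.22 ± 0.06 above R1881 (SE, edgeR adjusted p = 0.00820), with overlapping ranges. With the 2 groups alone that change was 0.21 and not called (edgeR adjusted p = 0.0515). Against R1881 at 22 h, 3 of 5 members were called with 2 µM (10.5% of all genes) and 2 of 5 with 500 nM (5.89% of all genes). ACSL5 had only 1 to 23 reads per LAPC4 library and was not called, at -0.68 ± 0.29 with R1881 at 22 h (SE, edgeR adjusted p = 0.121).

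At 8 h, 1 of 5 members was called with R1881 in LAPC4 (2.64% of all genes). This was ACSL1, at -0.06 ± 0.02 on the log2 scale (SE, edgeR adjusted p = 0.0479), with 442 to 474 CPM for DMSO and 416 to 447 CPM for R1881. That call was lost in 9 of the 11 alternatives tried. No member was called in LAPC4 for either dose against R1881 at 8 h (0.626% and 1.54% of all genes for 500 nM and 2 µM) with edgeR or DESeq2, and at an unadjusted p under 0.05 there were 0 with 500 nM and 1 with 2 µM.

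Against DMSO in LAPC4, 1 of 5 members was called with 500 nM at 22 h (0.648% of all genes), which was ACSL1 at -0.11 ± 0.02 on the log2 scale (SE, edgeR adjusted p = 0.0066). With 2 µM at 22 h (0.0165%) and with 500 nM and 2 µM at 8 h (0.187% and 0.011%) 0 of 5 members were called with edgeR or DESeq2, and 1, 0 and 0 had an unadjusted p under 0.05. Between the doses 0 of 5 were called at 8 h (0.0275%) and at 22 h (0.258%) with either tool, and 0 and 1 had an unadjusted p under 0.05. The effects of R1881 (3.21% of all genes) and of 2 µM darolutamide (1.77%) differed between 22 and 8 h in 2 of 5 members each, DBI and ACSL1.

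**Figure D3:**
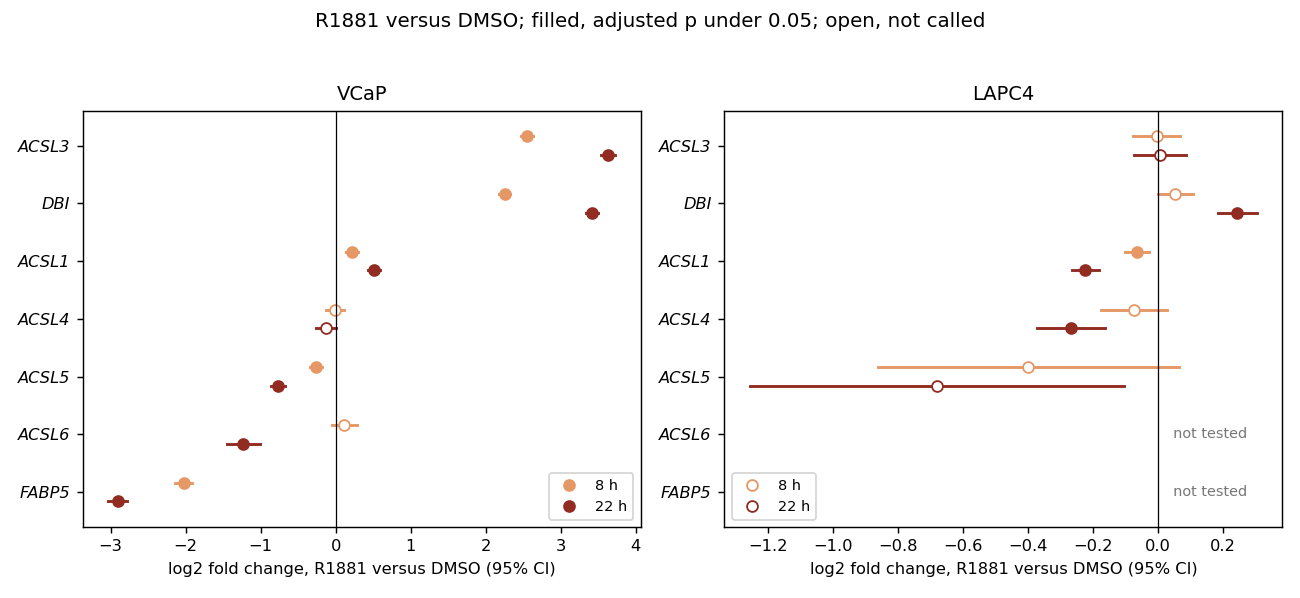
Log2 fold change of R1881 against DMSO (x axis, a separate scale for each line) with 95% confidence intervals for the members in VCaP (left) and LAPC4 (right) at 8 and 22 h. Filled points had an adjusted p under 0.05, open points did not. VCaP changes reach 3.64 and -2.90, while the called LAPC4 changes lie between -0.27 and 0.24.

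**Figure D4:**
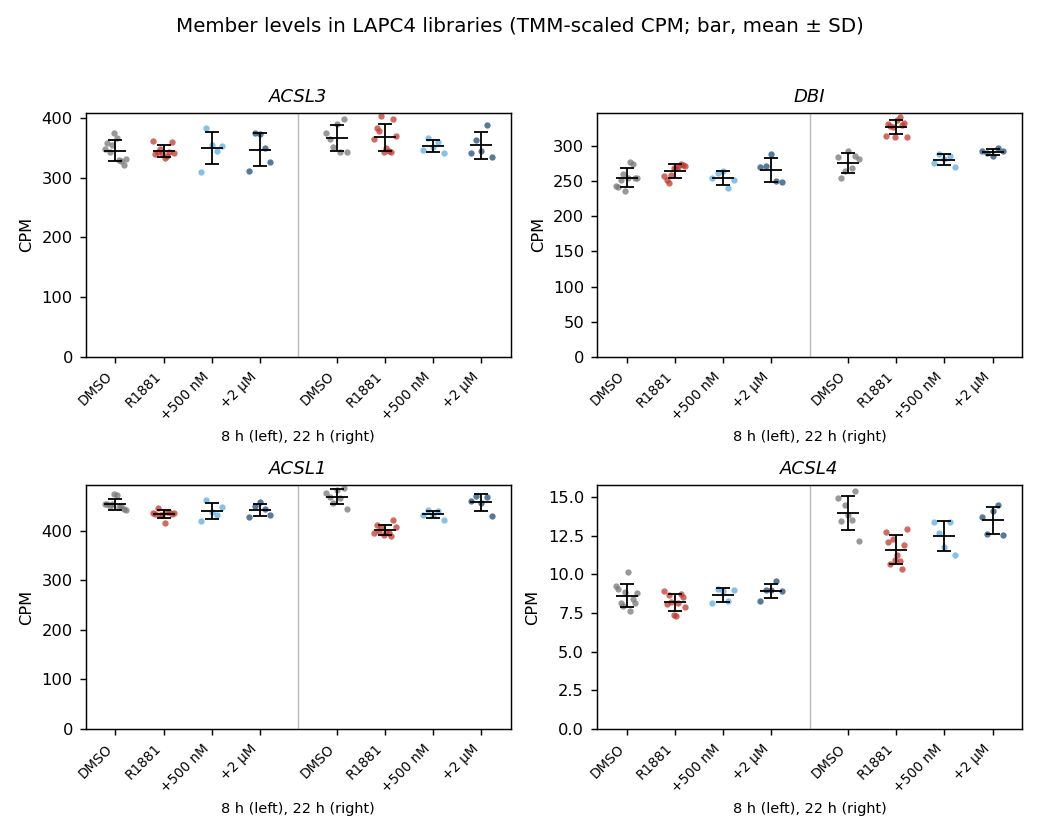
TMM-scaled CPM (y axis, linear, from 0) of 4 members in each of the 57 LAPC4 libraries, by treatment and time (x axis). Points are libraries, and black bars give mean ± SD. At 22 h, DBI is higher and ACSL1 lower with R1881 than with DMSO, ACSL3 does not separate the groups, and ACSL4 is higher at 22 h than at 8 h in every treatment.

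The lines also differed without androgen. In DMSO libraries at 22 h, all 5 members that passed the filter in both lines were called (87.2% of all genes). DBI was lower in VCaP by 1.70 ± 0.04 and ACSL1 by 1.07 ± 0.04 on the log2 scale (SE, edgeR adjusted p = 7.08e-69 and 5.82e-51). At 8 h 4 of the 5 were called (89.3% of all genes), all but ACSL3. ACSL5, ACSL6 and FABP5 were almost confined to VCaP. ACSL5 had at most 1.11 CPM in any LAPC4 library, and ACSL6 had at most 8 reads. FABP5 had 0 reads in 30 of 57 LAPC4 libraries and at most 5 in the others, and its pseudogenes together at most 10, against 50 to 883 FABP5 reads in VCaP. ACSL5 overlaps ZDHHC6 on the opposite strand, which had 41.2 to 56.3 CPM in LAPC4 and 19.0 to 35.8 CPM in VCaP, and whether counting used the strand is not given in the sources used here. ACSL3 was 0.27 ± 0.05 higher in VCaP (SE, edgeR adjusted p = 1.14e-07), and 0.08 higher and not called with library totals in place of TMM factors. ACSL4 was called 0.13 ± 0.06 higher (SE, edgeR adjusted p = 0.0489), but with library totals the log2 difference was -0.063 and not called.

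Some members differed between the DMSO libraries of 8 and 22 h. The labels give no harvest or batch, so time cannot be told apart from these. ACSL4 rose in LAPC4 from 7.62, 8.60 and 10.1 CPM at 8 h to 12.1, 13.9 and 15.4 CPM at 22 h, without overlap (log2 change 0.69 ± 0.05, SE, edgeR adjusted p = 9.89e-16), in a comparison that called 2 of 5 members and 22.1% of all genes. The other was DBI, at 0.12 ± 0.03 (SE, edgeR adjusted p = 0.00299). In VCaP 5 of 7 members were called (29.8% of all genes), ACSL3 at 0.43 ± 0.04, ACSL5 at 0.30 ± 0.04, ACSL1 at 0.23 ± 0.04, ACSL6 at -0.27 ± 0.09 and FABP5 at -0.33 ± 0.05 (SE, log2 scale).

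Levels were compared between genes only per kilobase, as RPKM over the merged exons of GENCODE 44. In VCaP with DMSO at 22 h, the RPKM was 38.7 ± 2.0 for ACSL5, 29.6 ± 1.1 for ACSL1, 29.4 ± 0.8 for DBI, 26.4 ± 1.9 for ACSL3 and 14.4 ± 0.8 for FABP5 (SD, n = 8). ACSL1, DBI and ACSL3 overlapped with their neighbours in this order. With the length of the longest transcript instead, DBI came first at 87.2 RPKM, since its merged exons are 2496 and its longest transcript 842 bases long, and ACSL1, ACSL5 and ACSL3 followed at 48.7, 47.1 and 45.1 RPKM. The order of DBI and of the 3 synthetases thus depends on the length used. With R1881 at 22 h, ACSL3 and DBI stood at 328 ± 25 and 314 ± 18 RPKM, overlapping each other, and ACSL1 at 42.2 ± 1.8 (SD, n = 9). The merged exons of ACSL3 are 14436 and its longest transcript 8441 bases long. The longest transcript thus raises DBI more than ACSL3, and the overlap of these genes holds for merged exons only. ACSL4 and ACSL6 were at 1.32 and 0.165 RPKM with DMSO. In LAPC4 with DMSO the order was DBI at 111 ± 6, ACSL1 at 72.1 ± 2.3, ACSL3 at 25.4 ± 1.5 and ACSL4 at 1.40 ± 0.11 RPKM, with no overlap between neighbours (SD, n = 7).

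The make-up of the 5 synthetases differed by line and treatment. As a share of their summed RPKM in VCaP at 22 h, ACSL3 took 27.4 ± 0.9% with DMSO (SD, n = 8), 83.2 ± 0.4% with R1881 (n = 9), 69.9 ± 1.3% with 500 nM (n = 4) and 51.3 ± 1.1% with 2 µM darolutamide (n = 5). ACSL5 took 40.2 ± 0.9% with DMSO, 5.77 ± 0.18% with R1881, 7.34 ± 0.52% with 500 nM and 14.4 ± 0.2% with 2 µM darolutamide. Its share was higher with darolutamide than with R1881 although its CPM was lower, as the ACSL3 part of the sum was smaller. By the longest transcript, ACSL1 took 34.1% and ACSL5 32.9% with DMSO. In LAPC4 ACSL1 was the main synthetase in every group, with 72.8 ± 0.7% for DMSO and 69.8 ± 0.9% for R1881 at 22 h (SD, n = 7 and 10).

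**Figure D5:**
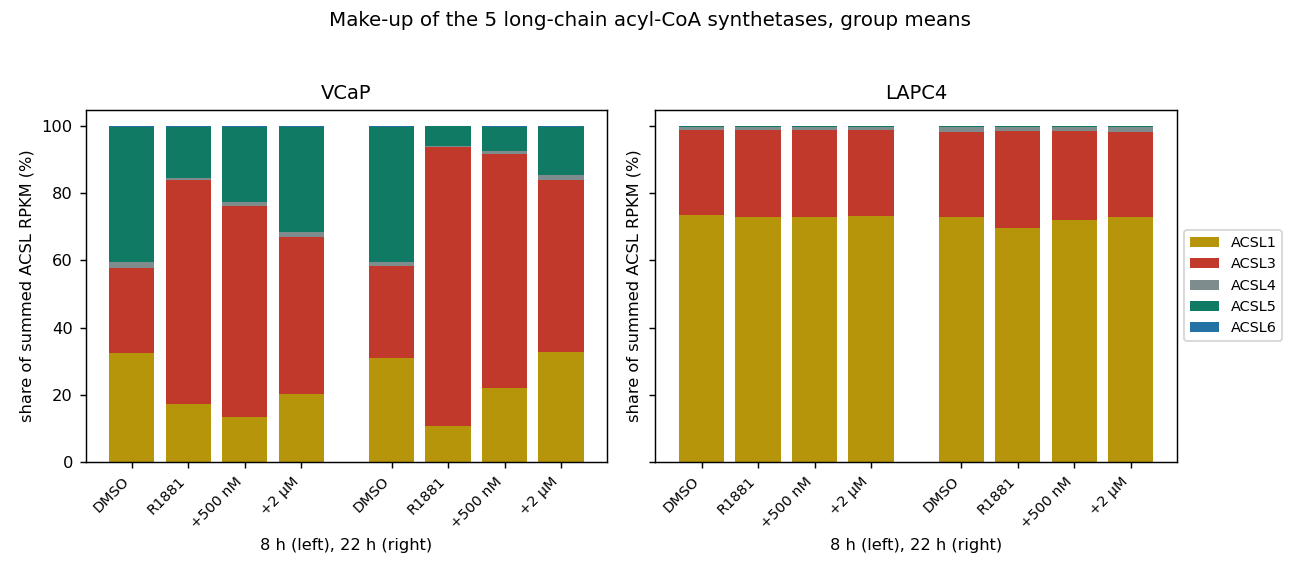
Share of each of the 5 acyl-CoA synthetases in their summed RPKM (y axis, percent, group means stacked from 0 to 100), by treatment and time (x axis) in VCaP (left) and LAPC4 (right). In VCaP at 22 h the ACSL3 share is 27.4% with DMSO and 83.2% with R1881, while in LAPC4 ACSL1 holds 72.8% and 69.8%.

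For DBI and ACSL1, which were called with R1881 at 22 h in both lines, the genes with the most similar log2 CPM over all libraries of a line were sought. Libraries of a group share their treatment, so the correlations describe the pattern over groups. Over 55 VCaP libraries, DBI was most like ALDH1A3, TMPRSS2 and TEX2 (Pearson's r 0.991, 0.991 and 0.990), and over 57 LAPC4 libraries most like ECI2, RALYL and SORD2P (0.885, 0.881 and 0.876). ACSL1 was most like CTDSPL, SPRED2 and FARP1 in VCaP (0.906, 0.881 and 0.874) and most like OGFRL1, C3orf58 and KCNH5 in LAPC4 (0.905, 0.893 and 0.891). ACSL3 and DBI had an r of 0.988 with each other in VCaP and of 0.370 in LAPC4.

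Other genes of fatty acid handling were counted from lists, of which only the tested genes are given. None of the 8 other fatty acid binding proteins passed the filter on low counts in either line. All 5 other proteins with an acyl-CoA binding domain were tested in VCaP, where R1881 at 22 h raised 2 and lowered 3 (median log2 change -0.44, against -0.03 over all genes), in a comparison that called 77.4% of all genes. ACBD3, a Golgi protein, rose by 0.71 ± 0.05 and fell by 0.74 with 2 µM darolutamide, whereas ACBD4 and ACBD7 changed by -1.08 ± 0.13 and -0.80 ± 0.10 (SE) and were not called with the antagonist. None of the 5 was called in LAPC4 with R1881 at 22 h by edgeR or DESeq2, and 0 had an unadjusted p under 0.05. In that comparison edgeR called 13.3% of all genes.

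Of 8 tested synthetases for short and medium chains, 4 rose and 3 fell in VCaP (median 0.36, with 77.4% of all genes called). ACSS2, which makes acetyl-CoA from acetate, changed by 1.16 ± 0.04 with R1881 and -0.93 ± 0.05 with 2 µM darolutamide (SE). AACS, which activates acetoacetate, changed by 0.56 ± 0.05 and -0.25 ± 0.06, and ACSF2 by -1.50 ± 0.12 and 0.71 ± 0.14 (SE). In LAPC4, where 13.3% of all genes were called, 1 of 7 was, ACSS1 at -0.35 ± 0.07 and 0.39 ± 0.08 (SE). Among 7 tested very long-chain synthetases and fatty acid transporters, 5 rose and 1 fell in VCaP (median 0.60, again with 77.4% of all genes called). SLC27A3 changed by 2.52 ± 0.09 and -2.03 ± 0.10, ACSBG1 by 1.39 ± 0.13 and -1.30 ± 0.15, and SLC27A4 by 1.19 ± 0.12 and -0.31 ± 0.13 (SE). In LAPC4 SLC27A2 rose by 0.37 ± 0.05 and CD36, which takes up fatty acids at the cell surface, fell by 0.23 (SE 0.06), as 2 called genes of 6 tested (13.3% of all genes).

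Thioesterases, which split acyl-CoA again, were called in 9 of 9 tested genes in VCaP with R1881 at 22 h, 7 upward and 2 downward (median 0.37). ACOT9 changed by 1.35 ± 0.05 with R1881 and -1.02 ± 0.05 with 2 µM darolutamide, ACOT4 by 1.17 ± 0.10 and -0.33 ± 0.10, and THEM4 by -1.10 ± 0.05 and 0.83 ± 0.06 (SE). Of all genes, 77.4% were called in this comparison. In LAPC4 edgeR called 0 of 5 thioesterases with R1881 at 22 h, in a comparison that called 13.3% of all genes. Of these 5, 1 had an unadjusted p under 0.05 and DESeq2 called 1.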

How the data were processed

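Total RNA of the cell lines VCaP and LAPC4 was made into stranded libraries of polyadenylated RNA and read from one end. The authors deposited raw read counts per gene for 58684 genes in 55 VCaP and 57 LAPC4 libraries, and all of these columns were used. The submitters' processing notes name bcl2fastq 2.17, STAR, featureCounts of the Subread package and DESeq2 and the build GRCh38. The annotation, the strand setting and the handling of reads with several alignments are not given in the sources used here. The counts are not normalized.

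Groups came from the sample labels. Each line was fitted on its 8 groups with edgeR 4.0.16 in R 4.3.3 (quasi-likelihood test, TMM factors, Benjamini-Hochberg adjustment over all tested genes of the line), dropping genes that reached 10 reads in fewer than 4 libraries. Differences between lines came from one fit of all 16 groups on 20892 genes. SEs were the log2 change divided by the root of the F statistic, and confidence intervals were 95%. Library totals were 12188455 to 25201678 reads with a median of 20144050.5, so ACSL6 (14 to 110 reads per VCaP library) had wider intervals than ACSL3 (3630 to 96896 reads). The reversal percentages were set on mean log2 levels for members called with R1881 and changed by at least 0.25.

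RPKM used merged exon lengths of GENCODE 44, where 35437 of 58684 symbols, and all 8 members, were matched by symbol or RefSeq synonym. Promoter windows of 250 bases before and 50 after the start were taken from RefSeq. FABP5 is described without sequence. Members and gene lists were chosen with earlier results of these data known. From each list, up to 3 called genes with the largest change with R1881 at 22 h in VCaP and up to 2 in LAPC4 are named, if their mean log2 CPM was above 0, except for genes that are not reported here. For genes alike to a member, the 3 with the highest r among those with a mean log2 CPM above 1 are named. Alternatives were DESeq2 1.42.0, RLE size factors, library totals, other filters, a GC covariate (GC known for 84.4% of VCaP and 84% of LAPC4 genes tested), control replicates 1 to 5 or 6 and above, fits of the compared groups alone, a replicate block and leaving out each darolutamide library. The fits were tested on simulated data.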

Additional observations from a re-analysis of the deposited data

Results flagged for a closer look

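Within groups, 4 of 96 sets of libraries held one that stood apart from the others, a gap that chance gives in about 5% of sets. The gap is given as a share of the group's range. ACSL4 was lowest in replicate 1 of VCaP with 2 µM darolutamide at 22 h (12.6 against 13.9 CPM for the nearest, gap 0.816). FABP5 was lowest in replicate 4 of VCaP with R1881 at 22 h (2.61 against 3.40 CPM, gap 0.529). In LAPC4 with R1881 at 8 h, ACSL1 was lowest in replicate 6 (416 against 432 CPM, gap 0.519) and ACSL5 highest in replicate 5 (1.11 against 0.573 CPM, gap 0.476).

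In 28 cases an effect differed between time points or lines by the test of the difference itself (edgeR). Between times these tests called 60.4% (R1881) and 48.5% (2 µM darolutamide) of all genes in VCaP, and 3.21% and 1.77% in LAPC4. Between the lines they called 48.6% and 58.6% of all genes for R1881 at 8 and 22 h. For 2 µM darolutamide at 22 h the share was 49%. In VCaP the R1881 effect at 22 h minus that at 8 h was 1.16 for DBI, 1.08 for ACSL3, 0.29 for ACSL1, -1.35 for ACSL6, -0.88 for FABP5 and -0.50 for ACSL5 on the log2 scale. The corresponding differences in the effect of 2 µM darolutamide were -0.78 for DBI, -1.17 for ACSL3, 0.39 for ACSL1, 0.93 for ACSL6, 1.44 for FABP5 and -0.70 for ACSL5. In LAPC4 they were 0.19 for DBI and -0.16 for ACSL1 with R1881, and -0.17 for DBI and 0.16 for ACSL1 with 2 µM darolutamide.

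Between the lines, the R1881 effect in VCaP minus that in LAPC4 at 8 h was 2.16 for DBI, 2.52 for ACSL3 and 0.25 for ACSL1. At 22 h it was 3.21 for DBI, 3.67 for ACSL3, 0.77 for ACSL1 and -2.84 for FABP5. For 2 µM darolutamide at 22 h it was -1.86 for DBI, -2.70 for ACSL3, -0.63 for ACSL1, 4.45 for FABP5 and -1.10 for ACSL5. FABP5 had 0 to 5 reads per library in LAPC4 and ACSL5 1 to 23, so the fitted values of both rest on few reads in that line and are not bounds. FABP5 passed the filter through VCaP alone, so its differences between the lines tell nothing of a response in LAPC4.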

How the results depend on the processing

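Of 1955 recomputed fold changes of members that left no library out, 1887 kept their direction and side of the threshold, 41 lost the call, 25 gained one and 2 turned direction, where a turn was counted only if either value was called. ACSL4 between the lines with DMSO at 22 h was 0.13 and became -0.063 with library totals. ACSL3 between the lines with DMSO at 8 h was -0.04 and became 0.051 with a GC covariate. The position of ACSL5 with 500 nM darolutamide in VCaP at 8 h was -10.2% and became 11.96% with library totals. The causes were not tested. With library totals the median of all VCaP genes with R1881 moved by -0.142 at 8 h and -0.111 at 22 h, and the share of called genes that rose at 8 h went from 49.1% to 34.0%.

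In LAPC4 with R1881 at 8 h, 1 called member became 0 with RLE factors, library totals, no filter and edgeR's own filter. Calls over all genes there went from 481 to 481, 470, 343 and 480. The member count also became 0 with control replicates 1 to 5, with 6 and above, with the 2 groups alone and with DESeq2. Calls over all genes were then 238, 220, 409 and 478. For 500 nM darolutamide against DMSO at 22 h, 1 became 0 without a filter, with control replicates 6 and above and with the 2 groups alone. Calls over all genes there went from 118 to 69, 43 and 59. For 2 µM against 500 nM at 22 h, 0 became 1 with a GC covariate, while calls over all genes rose from 47 to 181. For the change of the 2 µM effect between times, 2 became 1 with library totals and without a filter. Calls over all genes there went from 323 to 292 and 192. The member count ranged from 1 to 2 when single libraries were left out. The call lost there was DBI (-0.17), which was not called without any one of replicates 1, 2, 3 and 5 of 22 h or 1, 2 and 3 of 8 h (-0.14 to -0.17). Of the LAPC4 members only ACSL4 was called with R1881 and changed by at least 0.25, so it alone was given a position. With 500 nM at 22 h ACSL4 lay 40.2 ± 41.7% of the way to DMSO (SD, n = 5), and over halfway without replicate 5. With 2 µM at 22 h it lay 81.8 ± 35.1% of the way (SD, n = 5), with libraries from 43.7% to 121.3%. DBI and ACSL1 fell under that limit, so their return was not measured in this way.

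In VCaP, ACSL1 with 2 µM against DMSO at 22 h (0.14) was not called without replicate 1 (0.11) or 5 (0.10), ACSL6 in that comparison (-0.23) was called without replicate 3 (-0.28) or 4 (-0.30), ACSL6 with 500 nM against DMSO at 8 h (0.26) was not called without replicate 3 (0.21) or 4 (0.16) nor in any of the 11 alternatives that kept all libraries of that group (0.19 to 0.29), and ACSL1 between doses at 8 h (0.19) was not called without replicate 3 of 500 nM (0.16).

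Libraries share only a replicate number. The deviations of 149 same-numbered VCaP pairs correlated at -0.0051 on average and those of 161 LAPC4 pairs at 0.055, with 33 and 57 pairs over 0.1. With the replicate block, 1 called member became 0 in LAPC4 for R1881 at 8 h and for 500 nM against DMSO at 22 h. Calls over all genes there went from 481 to 304 and from 118 to 70. With the block and a GC covariate in LAPC4, 1 became 2 for R1881 at 8 h, and 0 became 1 for 2 µM against DMSO at 8 and at 22 h. Calls over all genes rose as well, from 481 to 958, from 2 to 952 and from 3 to 1080. ACSL6 with 500 nM against R1881 in VCaP at 22 h was 0.37 and not called with the block. The block also ended the call of ACSL4 with 2 µM against R1881 at 22 h in VCaP (0.20, edgeR adjusted p = 0.0522) and in LAPC4 (0.20, edgeR adjusted p = 0.0813), where ACSL3 was called instead (-0.085, edgeR adjusted p = 0.04). That LAPC4 call of ACSL3 also came with a GC covariate (-0.073, edgeR adjusted p = 0.00271) and with both (-0.085, edgeR adjusted p = 0.00122). Calls over all genes there rose from 1906 to 3656 and 4711. With 500 nM against R1881 at 22 h, ACSL3 was called with the covariate (-0.056, edgeR adjusted p = 0.0401) and with both (-0.081, edgeR adjusted p = 0.0122). Depth limits ACSL6, ACSL5 in LAPC4, FABP5 in LAPC4 and FABP3, which had few or no reads.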

Other observations

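Genes that use acyl-CoA further on were counted with R1881 against DMSO at 22 h. Of 20 tested glycerolipid acyltransferases and lipid droplet genes in VCaP, 11 rose and 6 fell, where 77.4% of all genes were called (median log2 change 0.26, against -0.03 over all genes). LPCAT4, a lysophospholipid acyltransferase, changed by -3.37 ± 0.12 with R1881 and by 2.33 ± 0.13 with 2 µM darolutamide (SE). MOGAT2, a monoacylglycerol acyltransferase, changed by 2.44 ± 0.12 and -2.18 ± 0.14, and DGAT2, which makes triacylglycerol, by -1.44 ± 0.08 and 1.36 ± 0.08 (SE). In LAPC4, 4 of 20 were called (13.3% of all genes), among them GPAT3 at -0.37 ± 0.08 and AGPAT5 at 0.25 ± 0.04 (SE).

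Of 8 tested PPAR receptors and target genes in VCaP, 3 rose and 3 fell (median 0.03, with 77.4% of all genes called). CPT1A, which passes long-chain acyl groups to carnitine, changed by 0.84 ± 0.03 with R1881 and -0.82 ± 0.04 with 2 µM darolutamide (SE). PPARG, a receptor for fatty acid ligands, changed by -1.83 ± 0.17 and 1.01 ± 0.20 (SE). In LAPC4, 2 of 9 were called (13.3% of all genes), among them PPARGC1A at -0.55 ± 0.13 with R1881 (SE).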
